A study of Homo sapiens with 12 samples.

Results

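The genes described here are 10 integrin subunits, 5 alpha chains (ITGA2, ITGA3, ITGA5, ITGA6 and ITGAV) and 5 beta chains (ITGB1, ITGB3, ITGB4, ITGB5 and ITGB6), measured in the side population of A549 cells and in the remaining cells of the same line. Members were taken by exact gene symbol in the probe table of the array, which gave 30 of 54613 probe sets that are not controls. These 30 probe sets belonged to 9 of the 10 genes. The 4 probe sets that name ITGB6 also name a second gene, so ITGB6 was not analysed here. The other genes had 1 to 7 probe sets each, and 19 of the 30 lay above the filter on dim probe sets, a mean log2 value of 5.39. Each of the 9 genes kept at least 1 probe set above this filter and was represented by the brightest of them.

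Integrins are membrane receptors built from an alpha and a beta chain, and the pair of chains decides which ligand in the extracellular matrix is bound. ITGB1 joins most of the alpha chains, among them the collagen receptor chain ITGA2, the laminin receptor chains ITGA3 and ITGA6 and the fibronectin receptor chain ITGA5, whereas ITGAV also joins ITGB3, ITGB5 and ITGB6 in receptors for vitronectin, fibronectin or latent TGF-beta. ITGB4 joins ITGA6 and anchors epithelial cells to laminin through hemidesmosomes, with a long cytoplasmic tail that binds plectin.

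A549 is an established human lung adenocarcinoma cell line. All cells took up Hoechst dye (5 µg/ml, 90 min) before flow cytometry separated them into the side population (SP), which stays weakly stained because it exports the dye, and the rest (non-SP). The cultures were untreated or had received a monoclonal antibody labelled anti-mouse EpCAM at 100 µg/ml for 48 h; the labels do not say whether mouse names the host or the target, and no control antibody is named for the untreated cells. The 4 groups, untreated non-SP, untreated SP, anti-EpCAM non-SP and anti-EpCAM SP, had 3 biological replicates each, and the number of arrays, 12 in total, limits the precision of every value.

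The deposited values are log2 expression values per probe set, and a difference of 1 is a change of 2-fold. Each SP array was compared with the non-SP array that shares its treatment and replicate number, which gives 6 pairs; across genes, deviations from group means had r of 0.62 to 0.89 within these pairs. The p-values for SP against non-SP measure the spread between these pairs, and the labels do not say whether both arrays of a pair came from 1 sort. The dye exporter ABCG2 was higher in SP cells by 0.49 ± 0.06 (SE, n = 6 pairs, adjusted p = 0.00375, limma), in the direction that the sort selects. The 8 epithelial markers fixed for A549 had mean log2 values of 11.8 to 12.6 per array. Of these 1, EPCAM, rose in SP cells (0.26 ± 0.06, adjusted p = 0.0435), a call kept in 6 of 15 alternatives. Over all genes 2.47% passed in either direction. The leukocyte, endothelial and fibroblast markers had means of 4.72 to 5.93, and 9 of the 20 on the array lay above the filter. Of these 9 markers 0 passed in limma over the 6 pairs, against 2.47% of all genes. An unadjusted p under 0.05 was found for 1, against 16.2% of all genes. In bulk samples such as these, fewer cells of a type and less RNA per cell cannot be told apart.

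The first comparison was SP against non-SP over both treatments. Of the 9 integrin genes, 0 passed at an adjusted p under 0.05 in limma, against 2.47% of the 14649 genes tested, and 2 (ITGA3 and ITGB4) had an unadjusted p under 0.05, against 16.2% of all genes. Estimates were above 0 for 4 genes and below 0 for 5, with a median of -0.05 on the log2 scale against 0.01 over all genes. The largest difference belonged to ITGB4, whose SP value was below the non-SP value in 6 of 6 pairs and which missed the threshold with adjusted p = 0.0532.

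**Figure D1:**
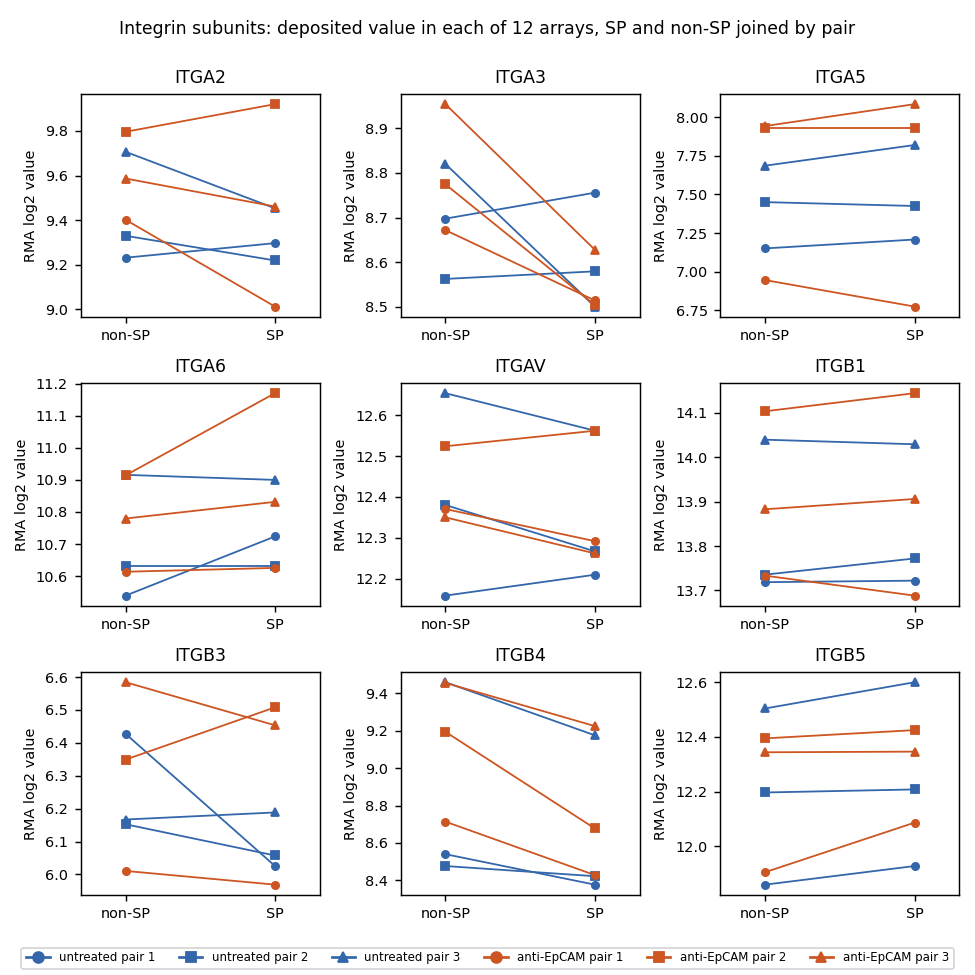
Deposited log2 value (y axis) in non-SP and SP cells (x axis) for the 9 integrin genes, by their representative probe set; each line joins the 2 arrays of a pair, blue for untreated and orange for anti-EpCAM, and each panel has its own y range. The 6 ITGB4 lines slope downwards, with SP values from 8.38 to 9.22 and non-SP values from 8.48 to 9.46, and the ITGB1 lines are nearly flat.

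Among the alpha chains, ITGA3, which binds laminin together with ITGB1, had the smallest p. In non-SP cells its log2 values (probe set 201474_s_at) were 8.70, 8.56 and 8.82 without antibody and 8.67, 8.77 and 8.95 with it. In SP cells they were 8.76, 8.58 and 8.50 without antibody and 8.51, 8.50 and 8.63 with it. The fractions overlapped in untreated cells, while in treated cells every SP array lay below every non-SP array. The share of all genes separated in this way was not counted, so this is only a description. Within pairs the SP minus non-SP difference was 0.06, 0.02 and -0.32 in untreated cells and -0.16, -0.27 and -0.33 in treated cells. The mean over pairs was -0.17 ± 0.06 (SE, n = 6 pairs, 95% interval -0.31 to -0.03), which is 0.891-fold, with adjusted p = 0.225 in limma. Thus 4 pairs lay below 0, among them all of the treated ones, and 2 untreated pairs lay slightly above.

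ITGA2, the chain that binds collagen, had log2 values of 9.23, 9.33 and 9.71 in untreated and 9.40, 9.80 and 9.59 in treated non-SP cells on probe set 227314_at. The SP values were 9.30, 9.22 and 9.45 in untreated and 9.01, 9.92 and 9.46 in treated cells. The highest and the lowest value were both in treated SP cells, and the fractions overlapped. The difference was -0.12 ± 0.07 (SE, n = 6 pairs, adjusted p = 0.482), below 0 in 4 pairs. The other ITGA2 probe set, 205032_at, gave -0.20. In the limma fit of all probe sets its unadjusted p was 0.0367 and its adjusted p 0.396. Its untreated SP values of 7.52, 7.64 and 7.54 lay below the untreated non-SP values of 7.84, 7.80 and 7.84. The share of all probe sets separated in this way was not counted. In treated cells the fractions overlapped on this probe set too, since 2 of the 3 pairs lay slightly above 0.

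ITGA5, ITGA6 and ITGAV, chains of receptors for fibronectin, laminin and vitronectin, differed less between fractions. ITGA5 had log2 values of 7.15, 7.45 and 7.69 in untreated and 6.95, 7.93 and 7.94 in treated non-SP cells, and 7.21, 7.43 and 7.82 in untreated and 6.77, 7.93 and 8.09 in treated SP cells. Its difference of 0.02 ± 0.06 (SE, n = 6 pairs, adjusted p = 0.890) has a 95% interval of -0.10 to 0.15. Array pairs were far apart and fractions close together. ITGA6, the partner of ITGB4, had non-SP values of 10.54 to 10.92 and SP values of 10.63 to 11.17 on probe set 201656_at, with a difference of 0.08 ± 0.06 (adjusted p = 0.528) and SP higher in 4 of 6 pairs. The ITGA6 estimate was 0.17 with averaged probe sets (adjusted p = 0.503) and 0.16 without anti-EpCAM pairs 1 and 3 (0.250), in a range of 0.04 to 0.17 over 15 alternatives. ITGAV ranged from 12.16 to 12.65 in non-SP and from 12.21 to 12.56 in SP cells, with a difference of -0.05 ± 0.05 (adjusted p = 0.711). The fractions overlapped for each of these genes.

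Among the beta chains, ITGB4 stood lowest in SP relative to non-SP cells. In non-SP cells its log2 values (probe set 204990_s_at) were 8.54, 8.48 and 9.46 without antibody and 8.71, 9.19 and 9.46 with it. In SP cells they were 8.38, 8.42 and 9.18 without antibody and 8.43, 8.68 and 9.22 with it. The arrays of number 3 were the highest in each group, and the ranges of SP and non-SP cells overlapped in both treatments, so that the difference is seen within pairs. Within pairs it was -0.16, -0.05 and -0.28 in untreated cells and -0.29, -0.52 and -0.23 in treated cells. The mean was -0.26 ± 0.06 (SE, n = 6 pairs, 95% interval -0.39 to -0.12), which is 0.838-fold, with an interval of 0.765 to 0.917. SP cells were lower in 6 of 6 pairs, as for 4.68% of the genes tested. The call is close to the threshold: adjusted p was 0.0426 when only genes above the 60th percentile of intensity were tested and 0.0443 with an intensity trend in the variance model. Without the pairing, that is with no replicate block, the same estimate of -0.26 had an SE of 0.23 and an adjusted p of 1.00.

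**Figure D2:**
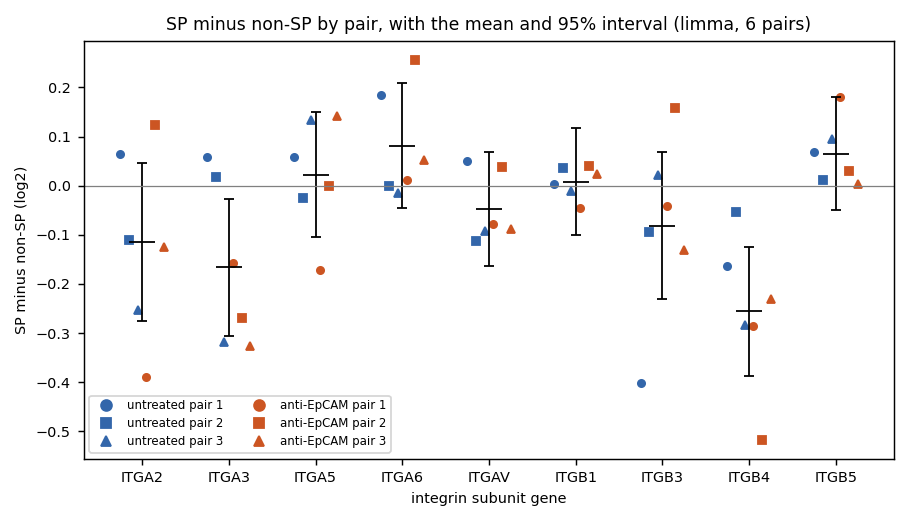
SP minus non-SP on the log2 scale (y axis) for each integrin gene (x axis); points are the 6 pairs, coloured by treatment and shaped by replicate number, and the black bars are the mean and its 95% interval from limma. All 6 ITGB4 points lie below 0, all 6 ITGB5 points lie above 0, and the interval excludes 0 for ITGA3 and ITGB4 before adjustment.

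The ITGB4 estimate was further from 0 in treated than in untreated pairs, but the difference between treatments did not pass. It was -0.17 ± 0.08 (SE, n = 3 pairs, adjusted p = 0.616) without antibody and -0.34 ± 0.08 (SE, n = 3 pairs, adjusted p = 0.172) with it. Both values come from the limma fit of all 6 pairs, so their SEs share a single estimate of the spread and are equal by design. The difference between these values, treated minus untreated, was -0.18 ± 0.12, with a 95% interval of -0.44 to 0.08 and an adjusted p of 1.00 in limma. For ITGA3 the corresponding values were -0.08 ± 0.09 and -0.25 ± 0.09, and they differed by -0.17 ± 0.13 (adjusted p = 1.00). Of the 9 genes, 0 passed in untreated pairs (0.0956% of all genes passed), 0 in treated pairs (0.246%) and 0 in the test of the difference between them, in which 0% of all genes passed. At an unadjusted p under 0.05 the counts of integrin genes were 0, 2 and 0, against 8.88%, 10.5% and 1.7% of all genes, and the 2 were again ITGA3 and ITGB4.

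ITGB1, the common beta chain, was on its representative probe set the member that differed least between the fractions of a pair. Its log2 values on probe set 211945_s_at were 13.72, 13.74 and 14.04 in untreated and 13.73, 14.10 and 13.88 in treated non-SP cells, and 13.72, 13.77 and 14.03 in untreated and 13.69, 14.14 and 13.91 in treated SP cells. The SP value followed the non-SP value of its own pair in each case. The difference was 0.01 ± 0.05 (SE, n = 6 pairs, 95% interval -0.10 to 0.12, adjusted p = 0.959), the narrowest interval of the 9 genes. Averaging the 4 ITGB1 probe sets above the filter gave 0.14 ± 0.12 instead (adjusted p = 0.612), the largest SE of the 9 genes, so that the close agreement of fractions belongs to this probe set.

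ITGB5, which forms a vitronectin receptor with ITGAV, was higher in SP cells in 6 of 6 pairs, as for 6.03% of the genes tested, but by little. Its log2 values on probe set 201125_s_at were 11.86, 12.20 and 12.50 in untreated and 11.91, 12.39 and 12.34 in treated non-SP cells. The SP values were 11.93, 12.21 and 12.60 in untreated and 12.09, 12.42 and 12.35 in treated cells, a difference of 0.06 ± 0.05 (SE, n = 6 pairs, adjusted p = 0.587). The fractions overlapped widely, the smallest gap within a pair was 0.0024, and the mean over its 4 probe sets gave -4.46e-05 in place of 0.06. ITGB3, the other vitronectin receptor beta chain measured, was dim. On probe set 204626_s_at it had non-SP values of 6.43, 6.15 and 6.17 in untreated and 6.01, 6.35 and 6.58 in treated cells, against SP values of 6.03, 6.06 and 6.19 in untreated and 5.97, 6.51 and 6.45 in treated cells. Its difference was -0.08 ± 0.07 (adjusted p = 0.606), and untreated pair 1, at -0.40, was the lowest of the 6 pairs. The other ITGB3 probe set above the filter, 204628_s_at, gave -0.07. Below the filter, 204627_s_at gave 0.15, 211579_at 0.12, 204625_s_at 0.01, 216261_at 0.00014 and 215240_at -0.05.

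Not all probe sets of a gene gave the same difference. Over the 30 probe sets 13 estimates were below 0 and 17 above, and 0 passed in the limma fit of all probe sets, in which 0.436% of probe sets passed. At an unadjusted p under 0.05 there were 3, one each for ITGA2, ITGA3 and ITGB4, against 11.5% of all probe sets. SP was lower in all 6 pairs on 1 of the 30 (ITGB4 204990_s_at), against 3.41% of all probe sets, and higher on 1 (ITGB5 201125_s_at), against 3.72%. The ITGB4 result rests on 204990_s_at, whose adjusted p in this fit was 0.171. The other probe set of ITGB4 above the filter, 230704_s_at, gave -0.0012 ± 0.077 with 4 pairs above 0 and 1 below, and the 3 below the filter gave 0.09, 0.01 and -0.11. Averaging the ITGB4 probe sets above the filter gave -0.13 with an adjusted p of 0.306.

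**Figure D3:**
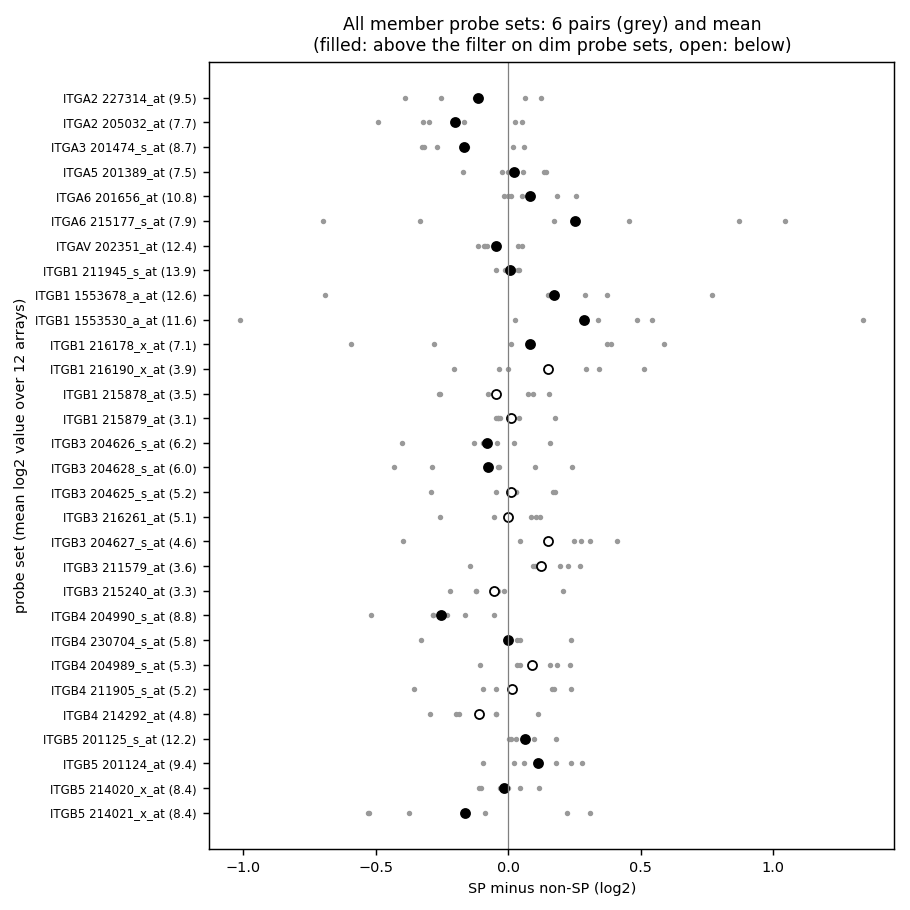
SP minus non-SP on the log2 scale (x axis) for the 30 probe sets of the 9 integrin genes (y axis, with the mean log2 value over 12 arrays in brackets); grey points are the 6 pairs and black circles their mean, filled above the filter on dim probe sets and open below it. ITGB4 204990_s_at has all points below 0, ITGB5 201125_s_at has all points above 0, and the widest spreads belong to ITGB1 1553530_a_at and ITGA6 215177_s_at.

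The spread between pairs was widest for a few probe sets of ITGB1 and ITGA6. On ITGB1 1553530_a_at the SP minus non-SP difference was 0.03, 0.34 and 0.54 in untreated pairs and -1.01, 0.49 and 1.34 in treated pairs, an SD of 0.771 against 0.032 on 211945_s_at. ITGB1 1553678_a_at gave 0.15, 0.15 and 0.29 in untreated and -0.69, 0.37 and 0.77 in treated pairs. ITGA6 215177_s_at gave -0.33, 0.17 and 0.46 in untreated and -0.70, 0.87 and 1.05 in treated pairs. Treated pair 1 was the lowest and treated pair 3 the highest on each of these 3 probe sets. The next widest, ITGB1 216178_x_at (SD 0.454), did not share this order, with 0.39, 0.37 and 0.01 in untreated and -0.59, 0.59 and -0.28 in treated pairs. For the 3 probe sets named first, means over pairs were 0.29 ± 0.24, 0.17 ± 0.16 and 0.25 ± 0.21 (SE, n = 6 pairs), with adjusted p from 0.702 to 0.731 in limma.

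The array carries control probe sets at the 5′ and 3′ ends of GAPDH, a housekeeping gene, and the signal at the 5′ end falls when RNA or labelled product is short. At the 5′ end SP minus non-SP was 0.18, 0.07 and -0.10 in untreated and -0.68, -0.33 and 0.46 in treated pairs, while at the 3′ end it lay between -0.14 and 0.09. The SP minus non-SP difference at the GAPDH 5′ end thus was lowest in treated pair 1 and highest in treated pair 3. The 3 ITGB1 and ITGA6 probe sets named first had their extremes in the same pairs. In treated pair 2, however, the GAPDH 5′ signal was lower in SP cells while those probe sets were higher. With the GAPDH 3′ minus 5′ difference as a covariate, the SE fell from 0.24 to 0.16 for ITGB1 1553530_a_at, from 0.16 to 0.11 for 1553678_a_at and from 0.21 to 0.18 for ITGA6 215177_s_at, but rose from 0.14 to 0.15 for ITGB1 216178_x_at. It also fell from 0.12 to 0.09 for ITGB5 214021_x_at and from 0.08 to 0.06 for ITGB4 230704_s_at. ITGB5 214021_x_at had differences of -0.09, 0.31 and -0.37 in untreated and -0.53, -0.52 and 0.22 in treated pairs. The SE remained at 0.06 for ITGB4 204990_s_at. The part of the GAPDH signal in this spread was not tested further.

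**Figure D4:**
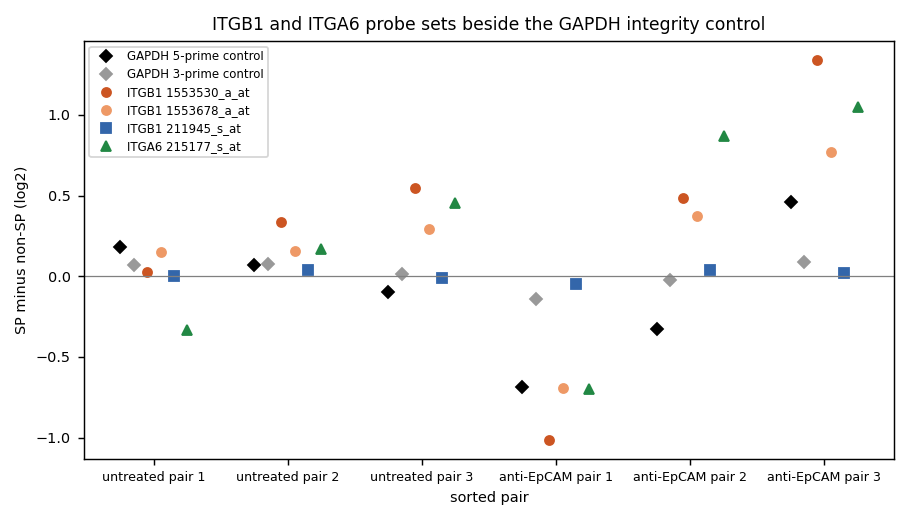
SP minus non-SP on the log2 scale (y axis) in the 6 pairs (x axis) for the GAPDH 5′ and 3′ control probe sets, 3 ITGB1 probe sets and 1 ITGA6 probe set. In treated pair 1 the GAPDH 5′ control (-0.68) and ITGB1 1553530_a_at (-1.01) are both low and in treated pair 3 both are high (0.46 and 1.34), whereas ITGB1 211945_s_at stays within 0.05 of 0 in every pair.

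The members differed in how far the 6 pairs lay apart relative to the gap within a pair. For ITGA5 the pair means spanned 1.15 on the log2 scale, and the mean absolute SP minus non-SP difference was 0.09. ITGB4 pair means spanned 0.89 with a mean absolute difference of 0.26, and ITGB1 pair means spanned 0.41 with a mean absolute difference of 0.03. On the deposited values ITGA3 was the most even member, with pair means that spanned 0.22 and a mean absolute difference of 0.19. Part of this spread depends on scaling, since after quantile normalization of the 12 arrays together the spans were 0.72 for ITGA5, 0.66 for ITGB4, 0.21 for ITGB1 and 0.45 for ITGA3.

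The second comparison was anti-EpCAM against untreated cells. Here array sets matter: sorted values differed by a mean of 0.0093 to 0.021 within the 6 pairs and by 0.046 to 0.52 between arrays of different pairs, so that the arrays of a pair had nearly the same distribution of values and arrays of different pairs did not. Of the 9 genes, 0 passed in limma on the pair means and 0% of all genes did, and at an unadjusted p under 0.05 the counts were 0 for integrin genes and 0.389% for all genes. On the deposited values all 9 estimates were above 0, with a median of 0.10 against 0.09 over all genes. After quantile normalization 6 of 9 were above 0, and after centring each array on its median 4 of 9 were, while the median of all genes went from 0.09 to 0.01 and -0.04. The direction for ITGA3, ITGA6, ITGAV, ITGB1 and ITGB5 thus flips with the scaling.

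The antibody difference of the pair means was 0.21 ± 0.30 for ITGB4 (SE, n = 3 against 3), which anchors cells to laminin, and 0.15 ± 0.33 for the fibronectin receptor chain ITGA5. The 95% interval for ITGA5 ran from -0.64 to 0.93 and that for ITGB4 from -0.51 to 0.92. Both reach to either side of 0, so neither direction is settled by these values. The narrowest interval was that of ITGA3, -0.31 to 0.36 around an estimate of 0.02. For every one of the 9 genes the pair means of the treatments overlapped, whereas they did not overlap, with anti-EpCAM higher, for 1.31% of all genes and, with anti-EpCAM lower, for 0.375%. Taken by fraction, differences lay between 0.02 and 0.30 in non-SP cells and between -0.06 and 0.22 in SP cells, with 0 of 9 genes passing in either (0% of all genes), and 0 at an unadjusted p under 0.05 (0.41% and 0.43% of all genes). In the fit of all probe sets on pair means, 0 of the 30 passed by antibody, as did 0% of all probe sets, and 0 had an unadjusted p under 0.05, against 0.848%.

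**Figure D5:**
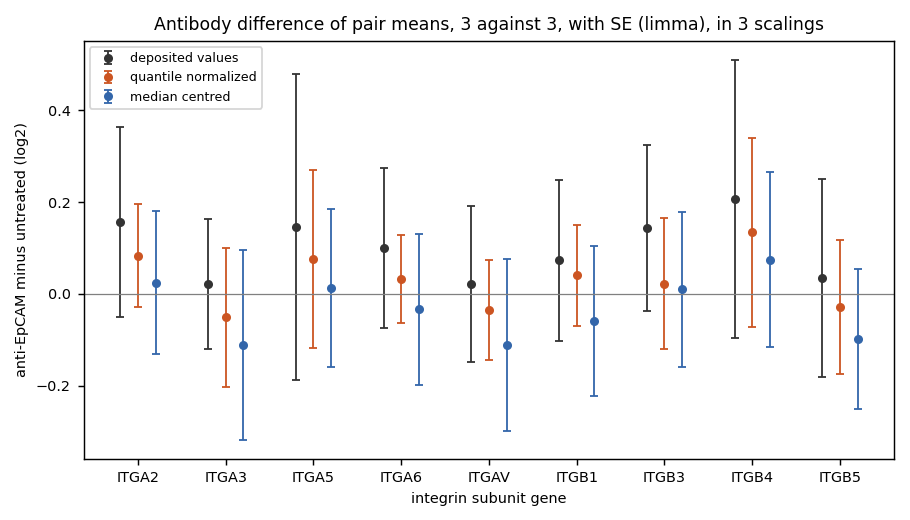
Anti-EpCAM minus untreated on the log2 scale (y axis) for each integrin gene (x axis), as the difference of 3 pair means against 3 with its SE from limma, for deposited values, after quantile normalization and after median centring. Every member's estimate is highest on deposited values, as for ITGB4 with 0.21, 0.13 and 0.07, and all estimates have adjusted p = 1.00 on deposited values.

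The integrin pathway around these subunits was described by lists of other subunits, ligands, adaptors and partners. Of the 16 other integrin subunits, 11 lay above the filter, 0 passed over the 6 pairs in limma (2.47% of all genes passed), 2 had an unadjusted p under 0.05 (16.2% of all genes), and the median was -0.07. Both were alpha chains that join ITGB1 in collagen receptors: ITGA1 at -0.30 ± 0.07 (SE, n = 6 pairs, adjusted p = 0.0570) and ITGA11 at -0.24 ± 0.05 (adjusted p = 0.0516). Each was lower in SP cells in 6 of 6 pairs, as for 4.68% of the genes tested. ITGAE was too, at only -0.05 (adjusted p = 0.675). ITGA1 passed in 2 of 14 alternatives, with the GAPDH covariate (adjusted p = 0.0474) and without anti-EpCAM pair 1 (0.0473), and its adjusted p ranged up to 1.00, with no replicate block (the same estimate, -0.30). ITGA11 passed in 2 of 15, with the stricter filter (0.0406) and without anti-EpCAM pair 1 (0.0390), whereas averaging its probe sets gave -0.08 (adjusted p = 0.475) and the fit with no replicate block an adjusted p of 1.00.

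Among 25 integrin ligands, 22 had a probe set of their own symbol and 19 lay above the filter. Of these 19, 3 fell and 1 rose in SP cells over the 6 pairs in limma, against 2.47% of all genes passing in either direction. An unadjusted p under 0.05 was found for 10, against 16.2% of all genes. The median of the 19 was -0.05. The list was chosen with earlier results of these data known, so these counts cannot show an excess of ligands. The collagen chains COL4A1, of basement membranes, and COL1A1, of fibrils, fell by 0.60 ± 0.07 (SE, n = 6 pairs, adjusted p = 0.00458) and 0.57 ± 0.08 (adjusted p = 0.00966). COL1A2, the other type I collagen chain, was among the fibroblast markers and not in this list. Its difference was 0.13 ± 0.05, with SP higher in 5 of 6 pairs (adjusted p = 0.285). NID1, the basement membrane protein nidogen, which links laminin to type IV collagen, fell by 0.31 ± 0.05 (adjusted p = 0.0177). FGA, the fibrinogen alpha chain, rose by 0.30 ± 0.06 (adjusted p = 0.0412). Each of the 4 passing genes had its direction in 6 of 6 pairs. Of all genes tested, 4.68% were lower and 6.03% higher in SP cells in all 6 pairs. Over 15 alternatives COL4A1 passed in 13, COL1A1 in 12, NID1 in 9 and FGA in 5. NID1 did not pass without untreated pair 1 (adjusted p = 0.0562), untreated pair 2 (0.0646) or anti-EpCAM pair 2 (0.0744), and FGA did not pass without untreated pair 1, 2 or 3 or anti-EpCAM pair 1 or 2 (0.0753 to 0.139). In limma FGA also did not pass after quantile normalization (adjusted p = 0.0627) or with no filter (0.0552). When the probe sets of a gene were averaged, COL1A1 (-0.25, adjusted p = 0.0607), NID1 (-0.13, 0.228) and FGA (0.20, 0.130) did not pass, so that the values above are those of 1 probe set per gene. None of the 4 passed when anti-EpCAM pairs 1 and 3 were left out together (adjusted p from 0.0723 to 0.114), and with no replicate block each of the same estimates (COL4A1 at -0.60) had an adjusted p of 1.00.

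Among 29 activators and adaptors of integrins, 25 had a probe set of their own symbol and 24 lay above the filter. Of these 24, 0 passed in limma (2.47% of all genes passed), 3 had an unadjusted p under 0.05 (16.2% of all genes), and the median was -0.02. FERMT1, a kindlin that activates integrins from the cytoplasmic side, was at -0.21 ± 0.05 (SE, n = 6 pairs, adjusted p = 0.0674). Vinculin (VCL), which ties adhesions to actin, was at -0.16 ± 0.05 (adjusted p = 0.157). Both were lower in SP cells in 6 of 6 pairs, as for 4.68% of the genes tested. In the same list TNS3 was higher in 6 of 6 pairs, at 0.06 (adjusted p = 0.653). FERMT1 passed in 1 of 15 alternatives, the stricter filter (adjusted p = 0.0497), and not with averaged probe sets (0.178), no filter (0.104), without anti-EpCAM pairs 1 and 3 (0.168) or with no replicate block (1.00, at the same estimate of -0.21). Of 7 hemidesmosome partners 4 had a probe set of their own symbol, and all 4 lay above the filter. Of these 4, 0 passed in limma (2.47% of all genes) and 0 had an unadjusted p under 0.05 (16.2% of all genes). Their median was -0.07. The 2 of smallest p were the laminin-332 chain LAMB3 at -0.13 ± 0.08 (adjusted p = 0.437) and the tetraspanin CD151, which binds laminin-binding integrins, at -0.11 ± 0.10 (adjusted p = 0.668). All 14 membrane partners lay above the filter, 0 passed in limma (2.47% of all genes) and 3 had an unadjusted p under 0.05 (16.2% of all genes). Their median was -0.0019. The amino acid transporter chain SLC3A2, which binds beta chains of integrins, was at 0.17 ± 0.06 (adjusted p = 0.184), and the tetraspanin CD82 at -0.13 ± 0.05 (adjusted p = 0.253). By antibody, 0 genes of any of these lists passed on the pair means in limma (0% of all genes). An unadjusted p under 0.05 was found for 0, against 0.389% of all genes.

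The genes whose pattern was most like that of ITGA3 and ITGB4 were ranked by Pearson's r over the 12 arrays after each array's median was subtracted. The 12 points are 6 pairs and share the subtracted medians, so r is a description. For ITGA3 these were the plexin PLXNA1 (r = 0.97), RHOT2 (0.97), ISCU (0.96), PRXL2B (0.96) and ISG15 (0.95), with SP minus non-SP differences of -0.08 to -0.19 and 0 of the 5 passing in limma. For ITGB4 they were TP53INP2 (0.94), TOB2 (0.93), SOX8 (0.92), BEX4 (0.92) and DVL3 (0.91). Of these, TP53INP2 fell in SP cells by 0.30 (adjusted p = 0.0349) and DVL3, a mediator of Wnt signals, fell by 0.25 (adjusted p = 0.0360). Over all genes 2.47% passed. The genes like ITGA3 and ITGB4 were picked over the same SP and non-SP arrays. Their SP minus non-SP differences therefore depend on that choice and add no separate evidence. TP53INP2 did not pass without untreated pair 2 or 3 or anti-EpCAM pair 2 or 3 (adjusted p 0.0703 to 0.167), and DVL3 did not pass without untreated pair 1, 2 or 3 or anti-EpCAM pair 2 or 3 (0.0584 to 0.171). The value for DVL3 is that of 1 probe set: averaging its probe sets gave -0.12 (adjusted p = 0.282), and with no filter its adjusted p was 0.0538. Neither passed without anti-EpCAM pairs 1 and 3 together (adjusted p = 0.0920 and 0.103), nor, at the same estimate of -0.30 for TP53INP2, with no replicate block (adjusted p = 1.00).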

How the data were processed

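RNA from 12 sorted samples was labelled with a 3′ kit and measured on an Affymetrix array. The deposited values are log2 values per probe set made by the authors with RMA, per the submitters' processing notes; its version, the summarised probe definitions and which arrays were processed together are not given in the sources used here. Nothing was renormalised for the main results.

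Of 54613 probe sets other than 62 controls, 41091 had 1 gene symbol, 1801 several and 11721 none. Genes were represented by their brightest probe set above the 40th percentile (14649 genes). SP minus non-SP was fitted on the 6 within-pair differences with treatment means averaged, and antibody differences on 3 pair means, or 3 arrays of a fraction, per treatment (limma 3.58.1, R 4.3.3, lmFit and eBayes, two-sided, Benjamini-Hochberg over all genes tested, adjusted p under 0.05). All 30 probe sets were also tested in fits over all 54613. The pairing of fractions rests on shared numbers and correlations of 0.62 to 0.89 (with no replicate block ITGB4 stayed at -0.26). Between treated and untreated arrays of a number, r in non-SP and SP cells was 0.73 and 0.71 (number 1), -0.11 and -0.18 (number 2) and 0.60 and 0.64 (number 3); not every pair exceeded 0.1, so numbers were not paired across treatments. The fits were run on simulated data with known differences. Recovery was required only of the SP minus non-SP fit and is not given here for either fit. How large a difference the antibody fit can detect is therefore not stated.

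Named were the 9 members with all their probe sets, from each list the passing genes or else the 2 of smallest p, and the 5 genes most like ITGA3 and ITGB4. The members and lists were chosen with earlier results of these data known. Alternatives were scaling, filter, probe set choice, variance trend, GAPDH covariate, pairing and left-out pairs. The GAPDH covariate in the fit of all probe sets was chosen after seeing the data.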

Additional observations from a re-analysis of the deposited data

Results flagged for a closer look

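On ITGB4 probe set 211905_s_at, SP minus non-SP had opposite signs by treatment: -0.09, -0.36 and -0.05 in untreated pairs and 0.17, 0.24 and 0.16 in anti-EpCAM pairs. The treated minus untreated difference was 0.36 ± 0.13 (SE, limma, adjusted p = 1.00), and the mean log2 value of this probe set, 5.16, lies under the filter of 5.39. On 204990_s_at, the brightest ITGB4 probe set, the treated minus untreated difference had the other sign, at -0.18. The share of all probe sets with such a split of signs was not counted, so this is only a description. In none of the 30 probe sets did 1 of the 6 pair differences stand apart from the other pairs by the Dixon criterion (critical value 0.625).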

How the results depend on the processing

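Of the 9 integrin genes, 0 passed over the 6 pairs with the settings used, and 1, ITGB4, passed with the filter at the 60th percentile and 1, again ITGB4, with an intensity trend. Over 15 alternatives ITGB4 stayed between -0.34 and -0.13 (adjusted p 0.0426 to 1.00) and ITGA3 between -0.20 and -0.11 (0.164 to 1.00). With no replicate block 0 of all genes passed in place of 362, and leaving out a pair gave 90 to 184 without an untreated pair and 430, 72 and 218 without anti-EpCAM pairs 1, 2 and 3. Without anti-EpCAM pairs 1 and 3 together 27 passed. In SP minus non-SP, ITGB5 reversed with averaged probe sets (-4.46e-05), and ITGA2 (0.0122) and ITGB3 (0.00023) without anti-EpCAM pairs 1 and 3. Leaving out 1 pair gave -0.00051 to 0.0209 for ITGB1, -0.0152 to 0.0631 for ITGA5 and, in untreated pairs, -0.151 to 0.0375 for ITGA3. For the antibody, ITGA3, ITGAV and ITGB5 reversed after quantile normalization (-0.051, -0.0354 and -0.0283), ITGA3, ITGA6, ITGAV, ITGB1 and ITGB5 after median centring (-0.111, -0.0333, -0.111, -0.0589 and -0.0984), and ITGA6 with averaged probe sets (-0.0227). Leaving out 1 pair gave -0.00741 to 0.319 for ITGA2, -0.0364 to 0.0624 for ITGA3, -0.0609 to 0.516 for ITGA5, -0.0108 to 0.201 for ITGA6, -0.0726 to 0.14 for ITGAV, -0.0336 to 0.173 for ITGB1 and -0.127 to 0.202 for ITGB5. The replicate block across treatments left ITGB4 at 0.21 (adjusted p = 0.998) and changed no call. The causes of these changes were not tested. The number of arrays, 3 per group, and probe sets near or under the filter value, as for ITGB3 and 4 of the 5 of ITGB4, limit what can be seen.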
